A study of Mus musculus with 15 samples.

Results

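The genes that copy DNA and divide the chromosomes were followed as a set of 48, taken by symbol from the 26688 genes of a count table. Of these, 25 act in DNA replication, 19 act in mitosis and 4 are transcription factors that act on such genes, and all 48 were found in the table and passed the filter on low counts. The tissue was forelimb joint of male DBA/1 mice aged 8 weeks, wild type in genotype per the labels, with skin and most muscle removed and capsule, synovium and soft tissue kept. In the CIA+F20 group, collagen-induced arthritis (an autoimmune joint disease raised by immunization with bovine type II collagen in Freund's adjuvant) was followed by F20, a compound known here only by its code, as a daily oral dose of 10 mg/kg over 21 days. The CIA group had the same arthritis without F20, and any vehicle it received is not stated in the labels. Mice of both arthritic groups had an arthritis index over 5 when they were assigned at random to them. The healthy group was not immunized. Each group had 5 libraries of messenger RNA, from 18627303 to 34247317 counted reads each, and no source states that each came from a separate mouse, so p-values measure the spread between libraries.

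A dividing cell first loads the MCM helicase onto its origins with the loaders Cdc6 and Cdt1, then starts the helicase with Cdc45 and the GINS complex and copies the DNA with polymerases held on the sliding clamp Pcna. Transcription of these genes is switched on by E2F factors before S phase, whereas most genes of mitosis follow later, under Foxm1 and Mybl2. In adult joint tissue most resident cells are at rest, and RNA of these genes marks whichever cells are cycling, which in a limb with bone includes the blood-forming cells of the marrow.

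Some libraries stood apart from their group in cell markers, and these values are given ahead of the results. In the 11 markers of marrow granulocyte precursors (Mpo, Elane, Camp, Ltf and others, none at 0 in any library) the summed level, in CPM (reads per 1e6 of a library size adjusted by TMM), ranged between 307 and 1071 in CIA+F20, between 397 (CIA 3) and 4639 (CIA 4) in CIA, and between 40.2 and 84.5 in healthy apart from 515 in healthy 3. All 11 rose in CIA against healthy, and none passed the test in CIA+F20 against CIA. Of the 10 erythroid precursor markers in the table, also without a 0, 9 were higher in CIA against healthy and 1 was lower (log2 fold change -0.64). None of them passed in CIA+F20 against CIA. They summed to between 365 and 806 CPM in CIA+F20 and between 234 (CIA 3) and 1413 (CIA 4) in CIA. In healthy the sum was between 166 and 576 CPM, highest again in healthy 3. Among all 15770 tested genes, 26.0% were called higher and 19.5% lower in CIA against healthy, and 15.5% lower in CIA+F20 against CIA. Healthy 4 had 77.6 CPM of the 8 T cell markers, against 0.656 to 2.61 CPM in the other healthy libraries, and had the least fibroblast RNA of the healthy group (262 CPM over 9 markers, against 1230 to 1928 CPM in the others) and the least cartilage RNA (21.2 CPM over 9 markers, against 132 to 270 CPM). The part that these cell types have in the results below was not tested, and in bulk tissue fewer cycling cells and less RNA per cycling cell cannot be told apart.

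**Figure D1:**
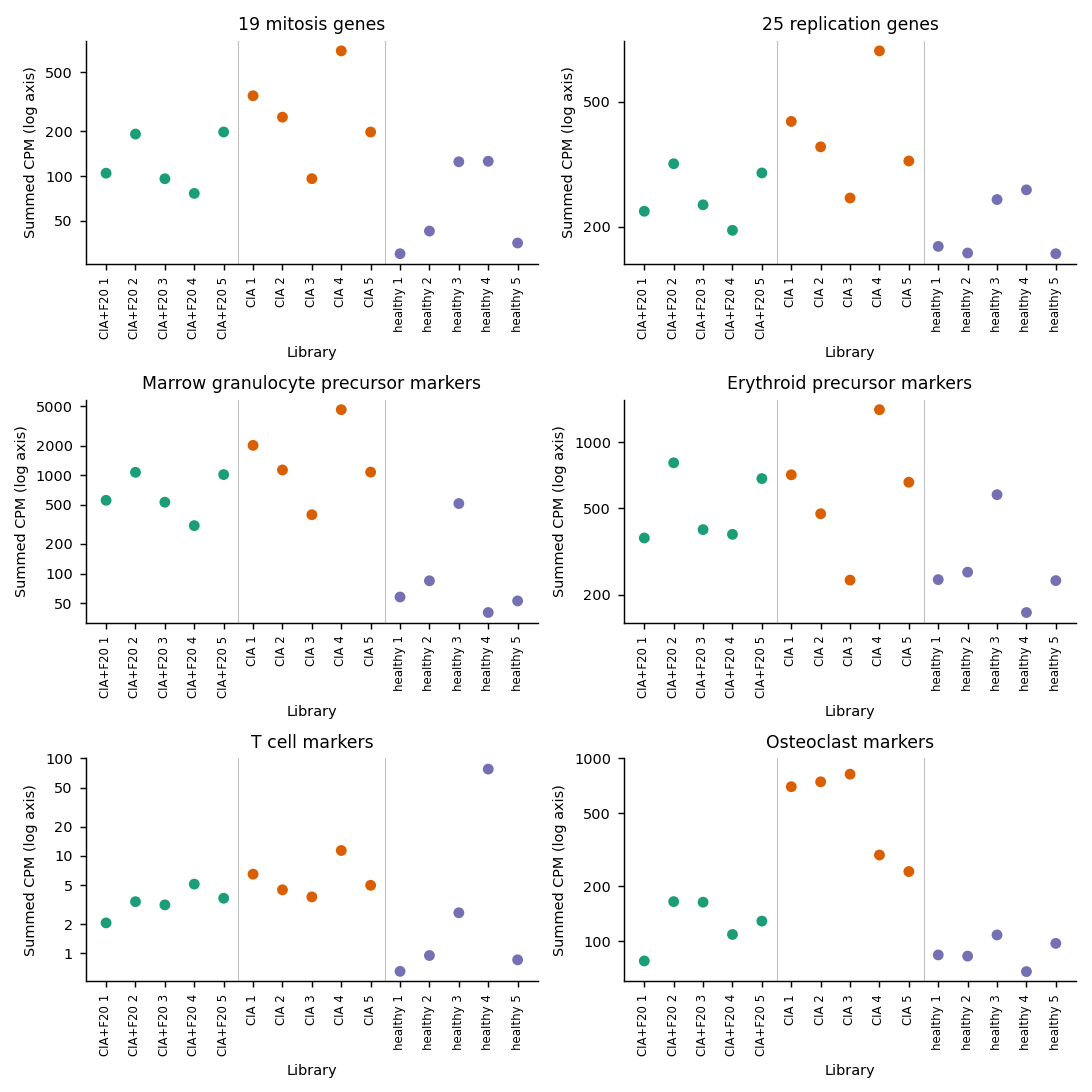
Summed CPM of the 19 mitosis genes, the 25 replication genes and 4 lists of cell markers in each of the 15 libraries, on log axes (points, coloured by group). CIA 4 is highest for both gene classes and for both marrow lists, CIA 3 is the lowest CIA library for these 4 sums, and healthy 3 and healthy 4 lie above the other healthy libraries for both gene classes.

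The CIA against healthy comparison sets immunized, arthritic joints against joints of mice that were not immunized, so arthritis and immunization cannot be told apart. In CIA, 43 of the 48 genes were higher and none was lower, where 26.0% of all 15770 tested genes were called higher and 45.5% were called in either direction (edgeR's quasi-likelihood test, Benjamini-Hochberg adjusted p under 0.05; all adjusted p-values below are of this kind). The median log2 fold change of the 48 was 1.98, against 0.07 over all tested genes. By class, 21 of 25 replication genes (median 1.36), 18 of 19 mitosis genes (median 2.21) and 4 of 4 transcription factors (median 2.05) were higher. The difference between the classes was not tested. Scaled by library totals alone, CIA had 47 of the 48 higher, where 46.7% of all tested genes were called higher and 8.58% lower, against 19.5% lower with TMM. The CIA+F20 against CIA comparison sets treated against untreated arthritic joints: 12 of the 48 were lower and none was higher, where 15.5% of all tested genes were called lower and 29.6% in either direction. Those 12 were 10 replication genes, 1 mitosis gene and 1 transcription factor. All 48 fold changes had a negative sign. Those of Rrm1 (-0.0004), Rfc4 (-0.02) and Ccne2 (-0.11) were small and turned positive when certain single libraries were left out. Medians were -0.88 for replication genes and -1.30 for mitosis genes, against -0.06 over all tested genes. An unadjusted p under 0.05 was found for 38 of the 48, and for 6944 of all 15770 tested genes. Without CIA 4 the medians were -0.64 for replication genes, -0.76 for mitosis genes and -0.70 for all 48, against -1.15 for all 48 with every library. With library totals, 39 of the 48 were lower, where 38.1% of all tested genes were called lower and 6.59% higher, against 14.1% higher with TMM. The median standard error was 0.30 for replication genes and 0.55 for mitosis genes in that comparison. The count moved with single libraries. It was 39 without CIA 3 and 20 without CIA 5, and it was 4 without CIA 4, 4 without CIA+F20 4, 5 without CIA+F20 1, 5 without CIA+F20 3 and 8 without CIA 2. The number of all genes called in either direction moved as well. It lay between 2883 (without CIA 2) and 6215 (without CIA 5), against 4669 with every library. The share of all tested genes called lower in each omission is not given here, so the counts of the 48 have no such share to be read against. Of the 12 calls, those of Gins2, Prim1, Cdk2 and E2f1 were kept whichever single library was left out. The other 8 were each lost without CIA 4 and also when certain other single libraries were left out.

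**Figure D2:**
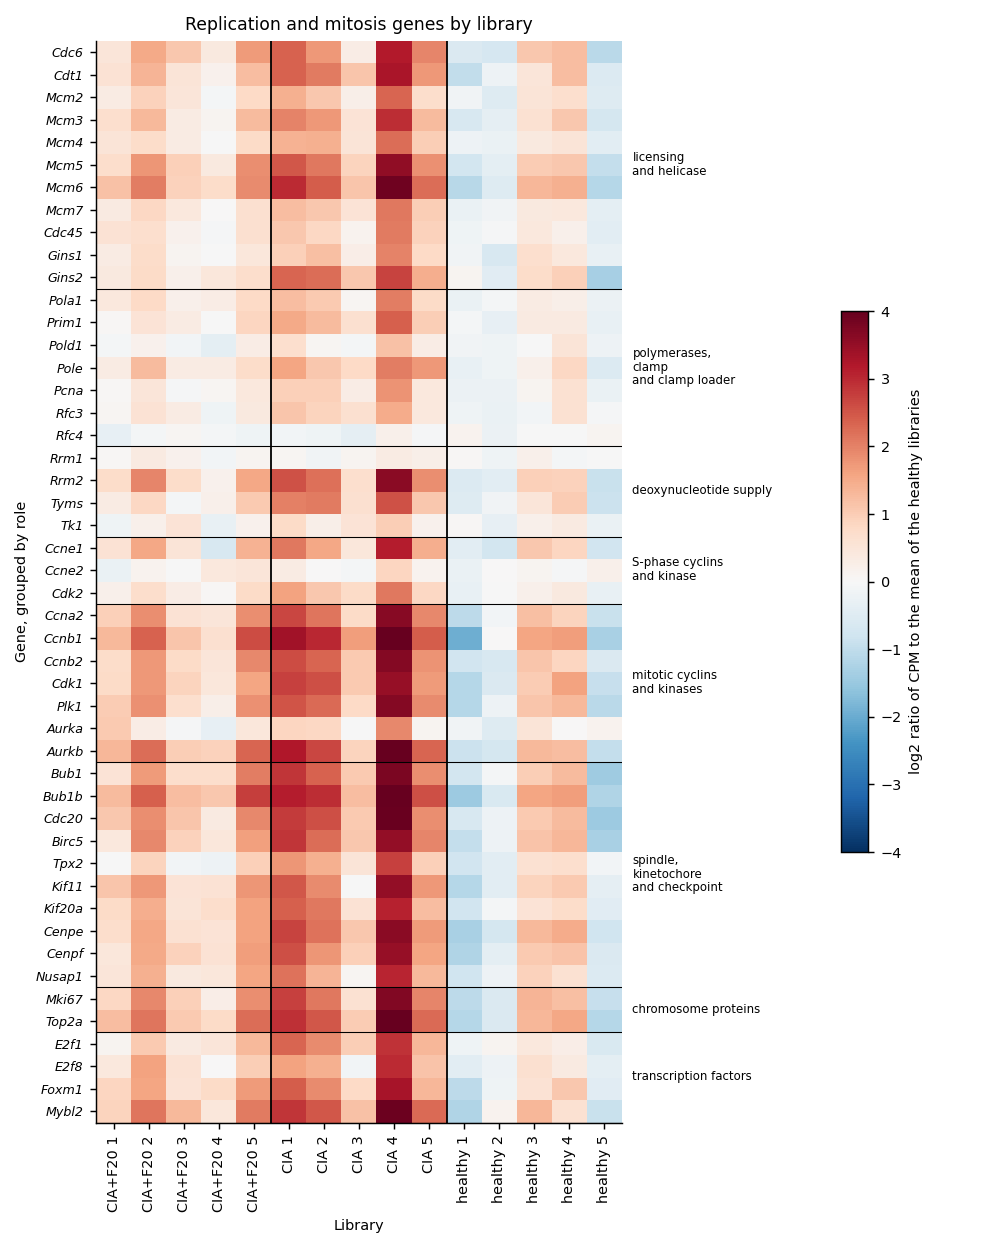
Colour gives the log2 ratio of each gene's CPM in a library to its mean over the healthy libraries, for 48 genes in rows grouped by role and 15 libraries in columns grouped as CIA+F20, CIA and healthy. Most rows are red throughout CIA and deepest in CIA 4, while Rfc4, Rrm1 and Ccne2 stay pale in every library.

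The libraries kept a common order across the genes. CIA 4 was the highest of all 15 libraries for 47 of the 48 genes, the exception being Rrm1, and CIA 3 was the lowest CIA library for 45. Within healthy, healthy 4 was highest for 31 genes and healthy 3 for 15, and at least 1 of these libraries was above CIA 3 for 39 genes. For the 19 mitosis genes the summed level was 105, 192, 96.0, 76.4 and 198 CPM in CIA+F20 1 to 5, 348, 250, 96.0, 698 and 198 CPM in CIA 1 to 5, and 30.0, 42.6, 125, 126 and 35.4 CPM in healthy 1 to 5. For the 25 replication genes it was 224, 317, 235, 195 and 296 CPM in CIA+F20, 433, 359, 247, 726 and 324 CPM in CIA, and 173, 165, 244, 262 and 164 CPM in healthy. On both sums CIA 3 lay within the CIA+F20 range, and CIA 4 lay above every other library. CIA 3 was also the lowest and CIA 4 the highest CIA library for the granulocyte and erythroid precursor sums, although CIA 3 lay below every CIA+F20 library for the erythroid sum. For the B cell precursor markers CIA 4 was again highest (91.1 CPM) and CIA 2 lowest (23.1 CPM, against 26.9 CPM in CIA 3). Healthy 4, with the least marrow granulocyte marker RNA of its group, had as much mitosis RNA as healthy 3.

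The loaders and subunits of the replicative helicase were higher in CIA without exception, 11 of 11, and 4 of 11 (Cdt1, Mcm4, Mcm7 and Gins2) were lower in CIA+F20 than in CIA. For this and every role below, the shares of all tested genes were 26.0% higher in CIA against healthy and 15.5% lower in CIA+F20 against CIA. Mcm4, a subunit of the MCM ring, had 13.5, 15.6, 11.99, 9.42 and 15.9 CPM in CIA+F20 1 to 5, 24.8, 25.4, 13.6, 44.6 and 18.8 CPM in CIA 1 to 5, and 8.20, 7.76, 12.4, 13.4 and 7.08 CPM in healthy 1 to 5. The lowest CIA library was just above the highest healthy library, so those groups did not overlap, while CIA 3 lay inside the CIA+F20 range. The log2 fold change was 1.38 ± 0.28 (SE, n = 5 each; edgeR adjusted p = 0.00169) in CIA against healthy and -0.94 ± 0.28 (edgeR adjusted p = 0.0235) in CIA+F20 against CIA, the second lost without CIA 4, CIA+F20 3 or CIA+F20 4. Mcm2, another subunit of the ring, had 10.7, 16.0, 11.9, 8.09 and 14.7 CPM in CIA+F20, 23.1, 17.9, 10.0, 42.8 and 14.0 CPM in CIA, and 7.70, 5.85, 12.1, 13.5 and 5.92 CPM in healthy. All 3 groups overlapped. It was 1.26 ± 0.36 higher on the log2 scale in CIA than in healthy (edgeR adjusted p = 0.0112), and its fold change of -0.81 ± 0.36 in CIA+F20 against CIA did not pass (edgeR adjusted p = 0.0935). Across Mcm2 to Mcm7 the log2 fold change in CIA against healthy was lowest for Mcm7 (1.253 ± 0.26) and highest for Mcm6 (2.40 ± 0.60). Mcm7 was -0.80 ± 0.26 in CIA+F20 against CIA (edgeR adjusted p = 0.0334), a call lost in 5 omissions of a single library, with a value of -0.49 without CIA 4. Mcm3, Mcm5 and Mcm6 had values of -1.11, -1.18 and -1.36 there with larger errors, none past the threshold (edgeR adjusted p between 0.0699 and 0.0880).

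Gins2, a GINS subunit (chr8:121305372-121316043 in GRCm39, the build of the count table), was the only 1 of the 48 genes whose CIA+F20 and CIA libraries did not overlap, where 5.32% of all tested genes were lower without overlap. It had 0.609, 0.818, 0.530, 0.634 and 0.784 CPM in CIA+F20, 2.58, 2.41, 1.04, 3.37 and 1.35 CPM in CIA, and 0.492, 0.306, 0.801, 0.930 and 0.132 CPM in healthy. Every CIA library was above every library of both other groups. This gave log2 fold changes of -1.66 ± 0.42 in CIA+F20 against CIA (edgeR adjusted p = 0.0115) and 2.04 ± 0.43 in CIA against healthy (edgeR adjusted p = 0.00198). In the GENCODE vM39 annotation 67.3% of its exon bases lie on exons of Gse1 on the other strand, and the strand setting of the counting is not given in the sources used here, so its level is uncertain. The same holds for Kif20a (61.5% shared with Cdc23 and Brd8), Rrm2 (43.3%), Aurka (38.6%), Rfc4 (29.0%), Pcna (20.8%) and E2f8 (20.2%). Reads of Pcna, Tyms, Ccnb1 and Ccnb2 could also be shared with pseudogenes of these genes that the annotation lists. Cdt1, the loader that geminin holds in check, was 2.12 ± 0.46 higher on the log2 scale in CIA than in healthy (edgeR adjusted p = 0.00232) and -1.47 ± 0.44 in CIA+F20 against CIA (edgeR adjusted p = 0.0254), the second lost in 4 omissions of a single library. Cdc6, Cdc45 and Gins1 rose in CIA by 1.92, 1.14 and 1.11, and their values of -1.06, -0.73 and -0.83 in CIA+F20 against CIA did not pass (edgeR adjusted p between 0.0600 and 0.137).

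Per length of exon (CPM per kilobase of merged GENCODE vM39 exons), the MCM subunits, which form a ring in equal numbers, differed in level within every library. Merged exons pool all annotated transcripts of a gene. Levels of different genes therefore depend on lengths that the expressed transcripts may not have. The most abundant of Mcm2 to Mcm7 exceeded the least abundant by a factor of 2.76 ± 0.615 in CIA+F20, 2.42 ± 0.584 in CIA and 4.70 ± 1.92 in healthy (mean ± SD of the libraries, n = 5 each). The factor lay between 2.03 and 3.36 in CIA+F20, between 1.93 and 3.31 in CIA and between 2.66 and 6.63 in healthy, so all 3 groups overlapped. CIA+F20 1 (3.36), CIA+F20 4 (3.28) and CIA 3 (3.31) were above healthy 3 (2.75) and healthy 4 (2.66), and the difference between the groups was not tested.

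Of the polymerases, the clamp and its loader, 5 of 7 were higher in CIA and 4 of 7 (Prim1, Pole, Pcna and Rfc3) were lower in CIA+F20 than in CIA. Prim1, the catalytic primase subunit that starts each DNA strand, had 2.32, 3.31, 2.83, 2.22 and 4.12 CPM in CIA+F20, 6.59, 5.52, 3.49, 11.9 and 4.503 CPM in CIA, and 2.09, 1.77, 2.89, 2.90 and 1.79 CPM in healthy. CIA was above healthy in every library, and 1 CIA library (CIA 3) was below CIA+F20 5. Log2 fold changes were 1.49 ± 0.31 in CIA against healthy (edgeR adjusted p = 0.00176) and -1.11 ± 0.30 in CIA+F20 against CIA (edgeR adjusted p = 0.0161). Pole, the catalytic subunit of the leading-strand polymerase, had 2.93, 5.69, 2.97, 2.95 and 3.95 CPM in CIA+F20, 7.10, 4.99, 4.11, 9.88 and 7.94 CPM in CIA, and 1.89, 2.08, 2.68, 4.18 and 1.59 CPM in healthy. Healthy 4 reached just above CIA 3, and CIA+F20 2 lay above both CIA 2 and CIA 3. The log2 fold change of Pole was 1.46 ± 0.30 in CIA against healthy (edgeR adjusted p = 0.00184) and -0.88 ± 0.30 in CIA+F20 against CIA (edgeR adjusted p = 0.0385), and the second call was lost in 7 omissions of a single library (edgeR adjusted p between 0.0569 and 0.101).

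Pcna, the clamp itself, had 21.7, 29.6, 20.3, 22.3 and 28.5 CPM in CIA+F20, 40.6, 41.0, 25.9, 73.7 and 28.5 CPM in CIA, and 17.8, 17.9, 22.7, 32.4 and 17.6 CPM in healthy. CIA 3 and CIA 5 lay within the range of both other groups. It was 0.95 ± 0.26 higher on the log2 scale in CIA than in healthy (edgeR adjusted p = 0.00853) and -0.78 ± 0.26 in CIA+F20 against CIA (edgeR adjusted p = 0.0366). The second call was lost in 6 omissions of a single library, and without CIA 4 the value was -0.47 (edgeR adjusted p = 0.107). The clamp loader split. Rfc3 was 0.94 ± 0.23 on the log2 scale in CIA against healthy (edgeR adjusted p = 0.00419) and -0.70 ± 0.22 in CIA+F20 against CIA (edgeR adjusted p = 0.0312), where the call was lost in 6 omissions of a single library. Rfc4, a subunit of the same loader, was flat, at 6.60 ± 0.7004 CPM in CIA+F20, 6.70 ± 1.01 CPM in CIA and 7.13 ± 0.728 CPM in healthy (SD, n = 5 each), with a log2 fold change of -0.09 ± 0.13 in CIA against healthy (edgeR adjusted p = 0.577). Its sign in that comparison turned to 0.22 when libraries were scaled by their totals alone. Pola1, the catalytic subunit of the primase-coupled polymerase, rose in CIA by 1.17 ± 0.30 (edgeR adjusted p = 0.00542) and was -0.66 ± 0.29 in CIA+F20 against CIA (edgeR adjusted p = 0.0935). Pold1, the catalytic subunit of the lagging-strand polymerase, had 0.48 ± 0.22 in CIA against healthy (edgeR adjusted p = 0.0917), and passed at 0.62 without healthy 4, its highest healthy library, and at 0.59 without CIA 3.

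Deoxynucleotides are made by ribonucleotide reductase, whose large subunit is Rrm1 and whose small subunit is Rrm2, with thymidylate from Tyms and the salvage kinase Tk1. Rrm2 had 8.49, 19.9, 8.49, 5.64 and 14.9 CPM in CIA+F20, 30.0, 23.4, 8.02, 62.8 and 18.6 CPM in CIA, and 3.40, 3.71, 9.89, 9.53 and 2.71 CPM in healthy. CIA 4 was more than 3 times any CIA+F20 library, while CIA 3 was below healthy 3 and healthy 4. In log2 terms the change was 2.30 ± 0.54 in CIA against healthy (edgeR adjusted p = 0.00362) and -1.32 ± 0.52 in CIA+F20 against CIA, which did not pass (edgeR adjusted p = 0.0658). Rrm1 did not follow it: it had 58.8 ± 7.14 CPM in CIA+F20, 58.8 ± 6.96 CPM in CIA and 54.2 ± 5.39 CPM in healthy, a log2 fold change of 0.12 ± 0.10 in CIA against healthy (edgeR adjusted p = 0.364). Per length of exon, the ratio of Rrm1 to Rrm2 was 1.69 ± 0.636 in CIA+F20, 0.884 ± 0.684 in CIA and 3.43 ± 1.77 in healthy, with overlapping ranges of 0.985 to 2.49 in CIA+F20, 0.303 to 2.03 in CIA and 1.53 to 5.59 in healthy. The merged exons span 11762 bases for Rrm1 and 3320 for Rrm2, so the size of the ratio rests on these lengths, while its order across groups does not. Without the lengths, the CIA means were 58.8 CPM for Rrm1 and 28.6 CPM for Rrm2. Tyms, which makes thymidylate, had 2.59, 3.68, 1.91, 2.35 and 4.29 CPM in CIA+F20, 8.39, 8.72, 3.19, 12.3 and 4.36 CPM in CIA, and 1.39, 1.84, 2.89, 4.18 and 1.09 CPM in healthy. Of the CIA libraries, CIA 3 alone fell inside the other groups. Fitted log2 fold changes were 1.71 ± 0.41 in CIA against healthy (edgeR adjusted p = 0.00436) and -1.32 ± 0.40 in CIA+F20 against CIA (edgeR adjusted p = 0.0270), the second lost in 5 omissions of a single library. Tk1 rose in CIA by 0.56 ± 0.20 on the log2 scale (edgeR adjusted p = 0.0323), a call lost when any 1 of healthy 1, healthy 2, healthy 5, CIA 1 or CIA 4 was left out (edgeR adjusted p between 0.0564 and 0.0889).

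**Figure D3:**
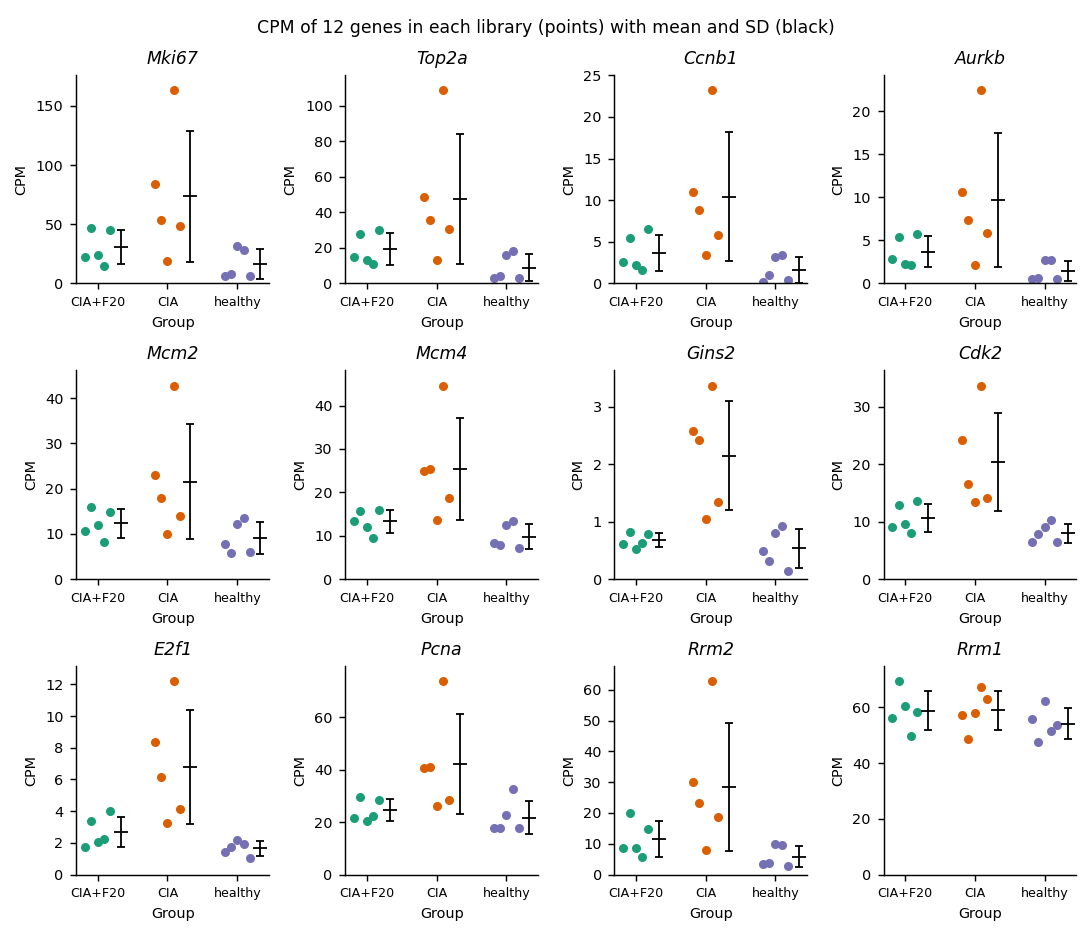
CPM of 12 genes in each library of CIA+F20, CIA and healthy (points), with the group mean and SD in black, on linear axes that start at 0. For Gins2 all CIA points lie above both other groups, for Mki67 and Rrm2 the lowest CIA point lies below 2 healthy points, and Rrm1 is level across the groups.

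Cdk2 (chr10:128533808-128540900, GRCm39) is the kinase that cyclin E switches on as cells enter S phase. It had 8.99, 12.9, 9.58, 8.02 and 13.5 CPM in CIA+F20, 24.2, 16.6, 13.4, 33.7 and 14.1 CPM in CIA, and 6.39, 7.79, 9.06, 10.2 and 6.42 CPM in healthy. CIA did not overlap healthy, and CIA 3 lay just under the highest CIA+F20 library. Its fold change on the log2 scale was 1.36 ± 0.25 in CIA against healthy (edgeR adjusted p = 0.00105) and -0.94 ± 0.25 in CIA+F20 against CIA (edgeR adjusted p = 0.0145). Of its cyclin E partners, Ccne1 had 1.71, 3.44, 1.63, 0.698 and 3.03 CPM in CIA+F20, 5.12, 3.43, 1.57, 10.4 and 3.19 CPM in CIA, and 0.820, 0.647, 2.44, 2.09 and 0.629 CPM in healthy. CIA 3 lay below healthy 3 and healthy 4, and CIA 2, CIA 3 and CIA 5 lay below the highest CIA+F20 library. It rose in CIA by 1.85 ± 0.56 (edgeR adjusted p = 0.0146; 0.0506 without CIA 4) and was -1.18 ± 0.54 in CIA+F20 against CIA (edgeR adjusted p = 0.106). Ccne2 had 10.1 ± 2.15 CPM in CIA+F20, 10.9 ± 3.12 CPM in CIA and 8.95 ± 1.10 CPM in healthy, with a log2 fold change of 0.28 ± 0.19 in CIA against healthy (edgeR adjusted p = 0.224).

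Of the 48 genes, 7 were higher in CIA than in healthy with no overlap between the groups (Mcm4, Mcm7, Gins2, Prim1, Cdk2, Ccnb1 and E2f1), 5 of them replication genes, where 11.7% of all tested genes were higher without overlap. The promoters of Cdk2 and Mcm7 are shown because they had the lowest p in CIA against healthy among replication genes whose promoter holds an E2F site. The windows run 250 bases before to 50 bases after a RefSeq start of the mouse build GRCm38.p6, read 5′ to 3′ along the gene, and the capitals mark the E2F site as TTTCCCGC, TTTCGCGC, TTTGCCGC or TTTGGCGC on either strand. The Cdk2 window is chr10:128705002-128705301 on the minus strand, with the site, read as GCGGGAAA, 140 bases before the start. The Mcm7 window, 1 of 2 for that gene, is chr5:138171834-138172133 on the minus strand, with GCGGGAAA 165 bases before the start and TTTCGCGC 16 bases after it. The other Mcm7 window, chr5:138171217-138171516, holds no E2F site. A gene with more than 1 window was counted as holding a site if any of them did.
Cdk2: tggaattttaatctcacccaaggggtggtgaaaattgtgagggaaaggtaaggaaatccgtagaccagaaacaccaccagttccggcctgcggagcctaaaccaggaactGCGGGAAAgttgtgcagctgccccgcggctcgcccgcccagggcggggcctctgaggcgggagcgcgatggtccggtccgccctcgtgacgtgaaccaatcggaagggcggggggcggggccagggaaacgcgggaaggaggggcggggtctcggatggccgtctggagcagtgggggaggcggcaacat
Mcm7: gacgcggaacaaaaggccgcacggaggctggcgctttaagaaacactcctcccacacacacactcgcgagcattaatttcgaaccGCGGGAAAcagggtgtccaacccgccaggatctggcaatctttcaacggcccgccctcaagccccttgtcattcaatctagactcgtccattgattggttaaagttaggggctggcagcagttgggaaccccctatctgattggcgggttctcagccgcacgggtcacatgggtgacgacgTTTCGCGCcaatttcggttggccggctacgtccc

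Of the 48 genes, 38 had a promoter in the RefSeq table. An E2F site lay in 10 of 20 replication genes with a promoter, in 1 of 15 mitosis genes (6.67%) and in none of 3 transcription factors, against 2.6% of all 27025 symbols of the table. Beside Cdk2 and Mcm7 the replication genes with a site were Cdt1, Rfc3, Mcm3, Mcm5, Mcm6, Pola1, Cdc6 and Pold1, and the mitosis gene was Cdk1. Of these 10 replication genes, 9 rose in CIA and 1, Pold1, did not pass, so the letters were also present in a promoter whose gene was not called. In the last 150 bases of the window, the site remained in 6 of the 20 replication genes. A match of letters describes the window and is not a binding site measured here.

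The mitotic cyclins and kinases were higher in CIA for 6 of 7 genes, and none of the 7 passed in CIA+F20 against CIA. Ccnb1, the cyclin that takes Cdk1 into mitosis, had 2.59, 5.44, 2.26, 1.62 and 6.51 CPM in CIA+F20, 11.0, 8.79, 3.38, 23.2 and 5.78 CPM in CIA, and 0.205, 1.02, 3.17, 3.37 and 0.364 CPM in healthy. CIA 3 and healthy 4 met at the boundary between these groups, and CIA+F20 2 and CIA+F20 5 were both above CIA 3. Differences in log2 were 2.71 ± 0.71 in CIA against healthy (edgeR adjusted p = 0.00695) and -1.50 ± 0.67 in CIA+F20 against CIA (edgeR adjusted p = 0.0981). Ccnb2, the second B cyclin, had 3.35, 6.83, 3.47, 2.85 and 7.77 CPM in CIA+F20, 12.6, 10.4, 4.18, 26.6 and 7.16 CPM in CIA, and 1.15, 1.26, 4.35, 3.72 and 1.32 CPM in healthy. Only healthy 3 exceeded the lowest CIA library. The log2 fold change was 2.38 ± 0.53 in CIA against healthy (edgeR adjusted p = 0.00275) and -1.33 ± 0.50 in CIA+F20 against CIA (edgeR adjusted p = 0.0594).

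Cdk1, the kinase of mitotic entry, had 3.43, 6.71, 3.75, 2.73 and 6.07 CPM in CIA+F20, 13.5, 12.1, 4.18, 22.9 and 6.59 CPM in CIA, and 0.861, 1.29, 4.08, 6.22 and 0.993 CPM in healthy. Healthy 4 stood well above CIA 3. It rose in CIA by 2.16 ± 0.57 on the log2 scale (edgeR adjusted p = 0.00717), and its value in CIA+F20 against CIA was -1.39 ± 0.55 (edgeR adjusted p = 0.0689). Aurkb, the kinase of the chromosomal passenger complex, had 2.86, 5.44, 2.26, 2.16 and 5.79 CPM in CIA+F20, 10.6, 7.33, 2.11, 22.5 and 5.81 CPM in CIA, and 0.574, 0.647, 2.79, 2.67 and 0.530 CPM in healthy. CIA 3 was the lowest of all 10 arthritic libraries and lay below healthy 3 and healthy 4. The log2 fold change of 2.77 ± 0.64 in CIA against healthy was the largest of the 48 (edgeR adjusted p = 0.00348), and that in CIA+F20 against CIA was -1.39 ± 0.60 (edgeR adjusted p = 0.0902). Aurka, the centrosomal aurora kinase, had 6.39 ± 2.44 CPM in CIA+F20, 9.42 ± 5.68 CPM in CIA and 5.09 ± 1.32 CPM in healthy, and its 0.89 ± 0.35 in CIA against healthy just missed the threshold (edgeR adjusted p = 0.0533). It passed when CIA 3, CIA 5, healthy 3 or CIA+F20 1 was left out (edgeR adjusted p between 0.0225 and 0.0464). Ccna2, the cyclin of S phase and G2, and Plk1, the polo kinase, rose in CIA by 2.27 ± 0.55 and 2.21 ± 0.59, and their values in CIA+F20 against CIA were -1.26 ± 0.53 and -1.29 ± 0.57.

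Genes of the spindle, the kinetochore and the checkpoint were higher in CIA for 10 of 10, with log2 fold changes between 1.59 (Tpx2) and 2.74 (Bub1b, a spindle checkpoint protein). Tpx2, which nucleates spindle microtubules and activates Aurka, was the 1 mitosis gene lower in CIA+F20 than in CIA. It had 5.45, 10.4, 5.13, 4.79 and 10.7 CPM in CIA+F20, 19.1, 14.9, 7.91, 36.8 and 10.6 CPM in CIA, and 3.20, 4.12, 8.43, 8.89 and 5.13 CPM in healthy. CIA 3 lay inside both other groups, and CIA 5 met the top of CIA+F20. This gave log2 fold changes of -1.30 ± 0.41 in CIA+F20 against CIA (edgeR adjusted p = 0.0307) and 1.59 ± 0.42 in CIA against healthy (edgeR adjusted p = 0.00689). The call in CIA+F20 against CIA was lost without CIA 4 (-0.85, edgeR adjusted p = 0.0986), CIA+F20 1, CIA+F20 3 or CIA+F20 4. Cdc20, the activator of the anaphase-promoting complex, had 3.62, 6.18, 3.68, 2.16 and 6.54 CPM in CIA+F20, 11.9, 10.2, 3.53, 26.4 and 6.17 CPM in CIA, and 1.02, 1.43, 3.48, 4.07 and 0.563 CPM in healthy. Only healthy 4 exceeded CIA 3. Log2 fold changes were 2.48 ± 0.59 in CIA against healthy (edgeR adjusted p = 0.00387) and -1.40 ± 0.56 in CIA+F20 against CIA (edgeR adjusted p = 0.0702). Kif20a, a kinesin of the central spindle, had 2.25, 3.72, 1.87, 2.16 and 4.12 CPM in CIA+F20, 7.14, 5.85, 1.996, 11.5 and 3.19 CPM in CIA, and 0.738, 1.23, 1.95, 2.21 and 0.927 CPM in healthy. It rose in CIA by 2.08 ± 0.45 (edgeR adjusted p = 0.00224) and was -1.07 ± 0.43 in CIA+F20 against CIA (edgeR adjusted p = 0.0702). The motor genes Kif11 and Cenpe, the kinetochore gene Cenpf, the spindle protein Nusap1, the passenger complex gene Birc5 and the checkpoint kinase Bub1 rose in CIA by 1.78 to 2.42. In CIA+F20 against CIA these 6 and Bub1b had values of -0.96 to -1.45, none past the threshold.

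Mki67 (chr7:135291513-135318090, GRCm39), whose protein coats mitotic chromosomes and which serves as the usual label of cycling cells, had 22.2, 47.0, 24.2, 15.03 and 44.8 CPM in CIA+F20, 83.7, 53.4, 18.8, 163 and 48.6 CPM in CIA, and 5.90, 8.31, 31.6, 28.6 and 6.52 CPM in healthy. Healthy 3 and healthy 4 were both above CIA 3, and the other 3 healthy libraries were below every arthritic library. In log2 terms the change was 2.19 ± 0.60 in CIA against healthy (edgeR adjusted p = 0.00917) and -1.26 ± 0.58 in CIA+F20 against CIA (edgeR adjusted p = 0.109). Top2a, the topoisomerase that untangles sister chromosomes, had 15.1, 28.1, 13.2, 10.9 and 30.3 CPM in CIA+F20, 48.4, 35.7, 13.1, 109 and 31.0 CPM in CIA, and 2.87, 4.19, 16.0, 18.5 and 2.85 CPM in healthy. Its libraries fell in the same pattern as those of Mki67. Fitted log2 fold changes were 2.43 ± 0.63 in CIA against healthy (edgeR adjusted p = 0.00675) and -1.28 ± 0.61 in CIA+F20 against CIA (edgeR adjusted p = 0.116).

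The promoters of Ccnb2 and Cdc20 are shown as the mitosis genes of lowest p in CIA against healthy whose promoter holds the CHR element, TTTGAA on either strand, through which the DREAM and MuvB complexes act on mitosis genes. Capitals mark that element. The Ccnb2 window is chr9:70421505-70421804 in GRCm38.p6, minus strand, with TTTGAA 167 bases before the start and 4 bases after it. The Cdc20 window is chr4:118437294-118437593, minus strand, with TTTGAA 18 bases before the start.
Ccnb2: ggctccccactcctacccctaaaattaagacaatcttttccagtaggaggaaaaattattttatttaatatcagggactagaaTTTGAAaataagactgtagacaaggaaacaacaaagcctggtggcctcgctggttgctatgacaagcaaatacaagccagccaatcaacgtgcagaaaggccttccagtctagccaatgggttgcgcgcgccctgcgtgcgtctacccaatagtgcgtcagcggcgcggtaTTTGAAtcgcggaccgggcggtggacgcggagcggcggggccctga
Cdc20: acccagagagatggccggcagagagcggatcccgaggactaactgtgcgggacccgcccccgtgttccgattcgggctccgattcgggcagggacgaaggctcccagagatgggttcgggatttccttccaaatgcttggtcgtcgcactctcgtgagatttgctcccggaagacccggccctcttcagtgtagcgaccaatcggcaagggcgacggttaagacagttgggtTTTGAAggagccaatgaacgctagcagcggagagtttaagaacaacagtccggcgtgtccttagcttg

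A CHR element lay in 10 of 15 mitosis genes with a promoter (66.7%), in 2 of 20 replication genes (10.0%) and in 1 of 3 transcription factors, against 20.2% of all symbols in the RefSeq table. All 10 of the mitosis genes still held it in the last 150 bases of the window, where 9.23% of all symbols did. The CCAAT box, 5 letters long and often present near a CHR, lay in 13 of 15 mitosis genes and in 13 of 20 replication genes, against 41.1% of all symbols. The 10 mitosis genes with a CHR included Aurka, which missed the threshold in CIA against healthy, and the 5 without a TTTGAA in the window (Bub1, Birc5, Ccnb1, Cenpe and Nusap1) were all called higher in CIA.

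All 4 transcription factors were higher in CIA. E2f1, an activating E2F (chr2:154401327-154411812, GRCm39), had 1.71, 3.35, 2.05, 2.25 and 4.02 CPM in CIA+F20, 8.34, 6.14, 3.23, 12.2 and 4.15 CPM in CIA, and 1.39, 1.74, 2.16, 1.92 and 1.03 CPM in healthy. CIA lay wholly above healthy, and CIA 3 alone lay below the highest CIA+F20 libraries. Its fold change on the log2 scale was 2.05 ± 0.36 in CIA against healthy (edgeR adjusted p = 0.000750), the lowest p of the 48, and -1.34 ± 0.35 in CIA+F20 against CIA (edgeR adjusted p = 0.0134). Mybl2, the Myb protein that joins MuvB in S phase, had 1.64, 4.01, 2.19, 1.20 and 3.85 CPM in CIA+F20, 6.64, 5.09, 2.03, 14.1 and 4.43 CPM in CIA, and 0.328, 0.953, 2.26, 1.34 and 0.430 CPM in healthy. Here healthy 3 was the single healthy library above CIA 3. Differences in log2 were 2.60 ± 0.58 in CIA against healthy (edgeR adjusted p = 0.00273) and -1.32 ± 0.54 in CIA+F20 against CIA (edgeR adjusted p = 0.0763). Foxm1, the forkhead factor of the mitotic programme, and E2f8, a repressing E2F, rose in CIA by 2.06 ± 0.49 (edgeR adjusted p = 0.00383) and 1.71 ± 0.47 (edgeR adjusted p = 0.00903). Their values in CIA+F20 against CIA were -1.06 ± 0.47 and -0.93 ± 0.46, and neither passed.

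**Figure D4:**
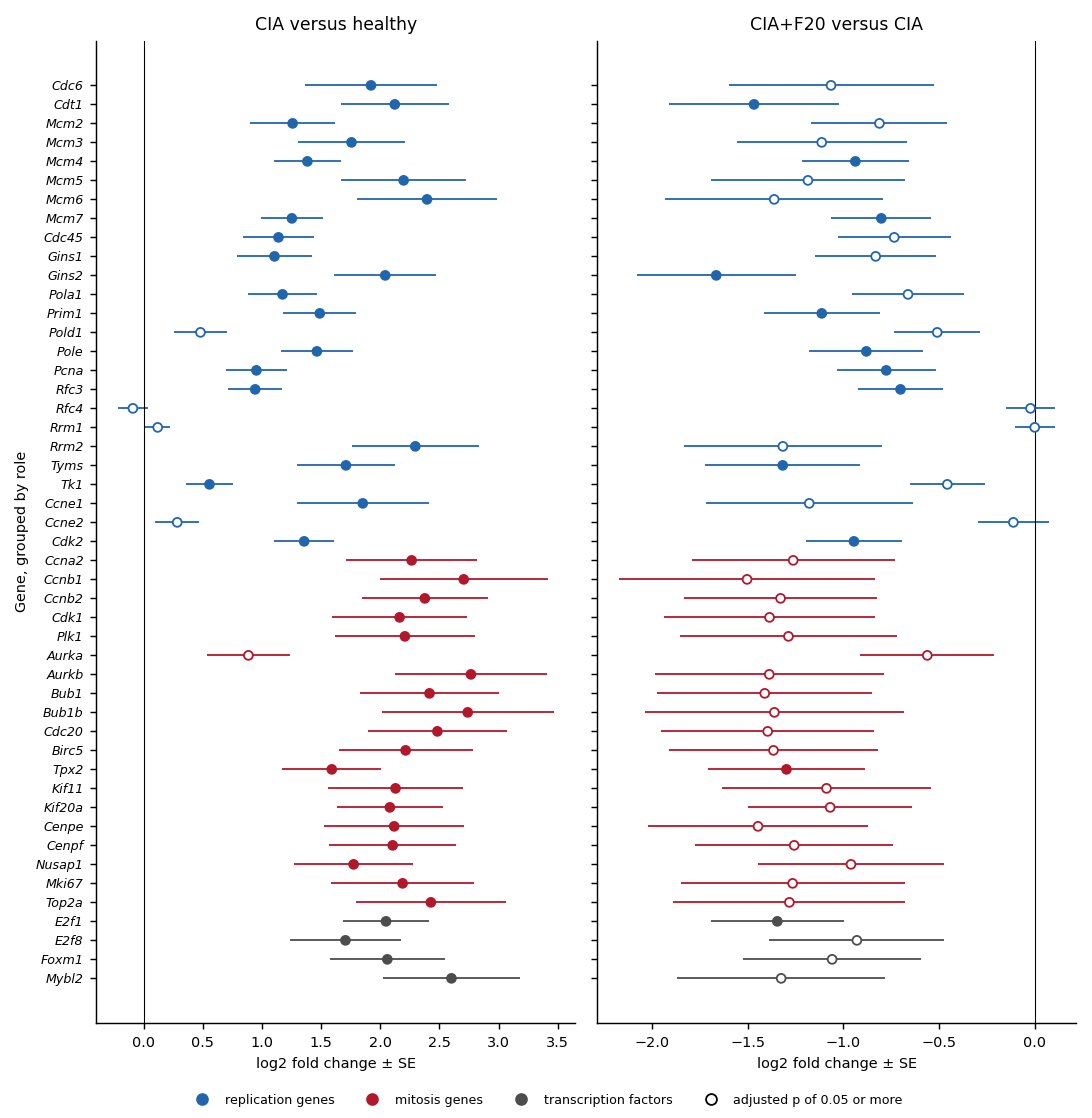
Log2 fold change of the 48 genes in CIA against healthy (left) and in CIA+F20 against CIA (right), with bars of 1 standard error, coloured by class, filled where the adjusted p was under 0.05 and open elsewhere. On the left 43 points are filled and all but Rfc4 lie right of 0, and on the right all lie at or left of 0 and 12 are filled.

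The comparison of CIA+F20 with healthy shows how far treated joints remained from unimmunized ones. None of the 48 genes passed, where 0% of all tested genes were called. Of all tested genes, 1388 had an unadjusted p under 0.05 and DESeq2 called 118, and among the 48 genes 3 had an unadjusted p under 0.05 (Aurkb 1.38 ± 0.63, Mybl2 1.28 ± 0.57 and Kif20a 1.01 ± 0.44). The sign was positive for 46 of the 48, with a median log2 fold change of 0.41 for replication genes and 1.00 for mitosis genes, against 0.01 over all tested genes. The mean of the CIA+F20 libraries lay between those of CIA and healthy for 46 of the 48. Neither count of 46 is given here with the matching share of all tested genes, so neither is read as particular to the 48. All 3 comparisons draw on the same libraries, so their values are not independent.

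Libraries that stood apart, in cell markers and in the 48 genes themselves, were then left out together. Healthy 4 was the highest healthy library for 31 of the 48 genes and healthy 3 for 15. Leaving both out therefore raises the fold changes against healthy by construction, and the counts against healthy below are no separate evidence of a difference. With healthy 3 and healthy 4 left out, an alternative added after the data were seen, CIA+F20 against healthy had a median of 0.76 for replication genes and 2.03 for mitosis genes. None of the 48 passed the adjusted threshold there. CIA against healthy then had medians of 1.72 for replication genes and 3.36 for mitosis genes, with 43 of 48 higher, where 21.9% of all tested genes were. With CIA 4 left out as well, the medians in CIA+F20 against healthy stayed at 0.76 and 2.03, and 12 of the 48 genes passed as higher there, where 2.24% of all tested genes did: 10 mitosis genes (among them Top2a at 2.56, Bub1b at 3.12 and Mki67 at 2.14) and the replication genes Mcm5 at 1.96 and Mcm6 at 2.37. In CIA+F20 against CIA, 22 of 48 were lower without healthy 3 and healthy 4, where 14.7% of all tested genes were lower. These healthy libraries are not part of that comparison and enter it only through the shared fit of the groups. The median of the 48 was -1.14 there, against -1.15 with every library, so the 22 calls are no separate evidence of a larger difference. Without healthy 3, healthy 4 and CIA 4, 7 of 48 were lower (Cdt1, Mcm4, Gins2, Prim1, Tyms, Cdk2 and E2f1), where 9.78% of all tested genes were. In CIA against healthy, 41 to 45 of the 48 were called when any 1 library was left out.

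Further genes of the same pathways, from lists that do not include the 48, were read beside them. For all these lists the shares to compare are those of all tested genes. Of these, 26.0% were called higher in CIA against healthy and 15.5% lower in CIA+F20 against CIA. Of 38 other mitosis genes all 38 were higher in CIA than in healthy, with a median of 2.19, and 9 were lower in CIA+F20 than in CIA. Cdca3, a mitotic entry gene, averaged 3.52 ± 1.07 CPM in CIA+F20, 8.17 ± 5.00 CPM in CIA and 1.83 ± 0.742 CPM in healthy, a log2 fold change of 2.16 ± 0.40 in CIA against healthy (edgeR adjusted p = 0.000955) and -1.22 ± 0.38 in CIA+F20 against CIA (edgeR adjusted p = 0.0290). Racgap1, a GTPase regulator of cytokinesis, was 2.48 ± 0.47 in CIA against healthy (edgeR adjusted p = 0.00113) and -1.43 ± 0.45 in CIA+F20 against CIA (edgeR adjusted p = 0.0289). Of 35 other replication genes 22 were higher and 1 lower in CIA, with a median of 0.72, and 12 were lower in CIA+F20 than in CIA. Gins3, a further GINS subunit, averaged 1.81 ± 0.190 CPM in CIA+F20, 3.62 ± 1.46 CPM in CIA and 1.55 ± 0.502 CPM in healthy, at 1.23 ± 0.27 in CIA against healthy (edgeR adjusted p = 0.00232) and -0.999 ± 0.26 in CIA+F20 against CIA (edgeR adjusted p = 0.0140). The 1 lower gene was Orc4, an origin recognition subunit, at -0.32 ± 0.09 in CIA against healthy (edgeR adjusted p = 0.0102), while Orc6 of the same complex was 0.72 ± 0.15 (edgeR adjusted p = 0.00180).

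Ahead of S phase, 5 of 10 genes of the G1 cyclins, their kinases and the pocket protein group were higher in CIA and 3 (Cdk4, Cdk6 and E2f5) were lower in CIA+F20 than in CIA. Cdk6, a partner of D cyclins, averaged 9.30 ± 2.14 CPM in CIA+F20, 22.0 ± 12.1 CPM in CIA and 4.82 ± 1.84 CPM in healthy, at 2.198 ± 0.35 in CIA against healthy (edgeR adjusted p = 0.000440) and -1.24 ± 0.34 in CIA+F20 against CIA (edgeR adjusted p = 0.0157). Of 6 tested CDK inhibitors, Cdkn2c and Cdkn2d were higher in CIA (0.73 ± 0.18 and 0.87 ± 0.20) and at -0.54 ± 0.18 and -0.59 ± 0.20 in CIA+F20 against CIA, both calls of lower RNA, and Cdkn1b was at 0.15 ± 0.12 in CIA against healthy (edgeR adjusted p = 0.317). Among the remaining E2F genes, E2f2 (2.56 ± 0.57, edgeR adjusted p = 0.00269) and E2f7 (1.82 ± 0.42, edgeR adjusted p = 0.00326) were higher in CIA. E2f6, a repressor that acts with Polycomb proteins, moved the other way. It had 191, 205, 183, 200 and 174 CPM in CIA+F20, 116, 90.4, 128, 97.2 and 175 CPM in CIA, and 203, 195, 210, 206 and 224 CPM in healthy. Every CIA library was below every healthy library, and CIA 5 alone reached into the CIA+F20 range. The log2 fold change was -0.77 ± 0.14 in CIA against healthy (edgeR adjusted p = 0.000936) and 0.65 ± 0.14 in CIA+F20 against CIA (edgeR adjusted p = 0.00661). The skeletal muscle fibre marker sum, which was 83735 ± 7240 CPM in CIA+F20, 57062 ± 18350 CPM in CIA and 92153 ± 5867 CPM in healthy, lay in the same order of groups as E2f6, and its part in that result was not tested.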

How the data were processed

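Forelimb joint messenger RNA was sequenced as paired-end reads on an MGI platform, per the labels' protocols, and libraries were grouped by title. Per the submitters' processing notes, the authors used fastp 0.23.2, HISAT2 2.2.1 with the build GRCm39 and featureCounts 2.0.3. Annotation release, strandedness and treatment of multimapping reads: not given in the sources used here. What the authors deposited are raw read counts of 26688 genes, with no normalization.

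The 48 genes, the further lists and the markers were chosen with earlier results of these data known. Counts were tested in R 4.3.3 with edgeR 4.0.16, using TMM scaling, filterByExpr with a minimum count of 10 (15770 genes tested, 10918 below it), 1 fit of all 3 groups, quasi-likelihood F tests and Benjamini-Hochberg adjustment over all tested genes, called at 0.05. A standard error is the fold change over the root of F. The procedure was tested on simulated counts, with the spread set to the trend over all genes and not to that of each gene. It recovered 58% of 2-fold changes in CIA against healthy and 60% in CIA+F20 against CIA. For 1.5-fold changes the shares were 16% and 12%, and for 4-fold changes 100% and 94%. A gene that did not pass may therefore still differ by about 2-fold. The biological coefficient of variation was 27.8%, and counting error weighs most on genes under 1 CPM. No library was found in duplicate (chi-square per degree of freedom of at least 22.0 for each pair within a group). Exon lengths and overlaps come from GENCODE vM39 on GRCm39 and promoters from RefSeq on GRCm38.p6, with no coordinate converted between builds. Values in every library are given for Mki67, Top2a, Pcna, Mcm2, Ccnb1, Cdk1, E2f1 and, per role, the 2 genes of lowest p in CIA against healthy and the 1 of lowest p in CIA+F20 against CIA. Of each further list the 3 called genes of lowest p per comparison could be named, and Cdkn1b and the cell marker values were chosen after they were seen. Alternatives were DESeq2 1.42.0, RLE size factors, library totals, no filter, the compared groups alone, a block on replicate number and the omission of libraries.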

Additional observations from a re-analysis of the deposited data

Results flagged for a closer look

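Within each group of 5 libraries, the highest or lowest value of a gene was compared with its nearest neighbour by Dixon's test, in 153 groups. In 2 of them healthy 4 stood far above the other healthy libraries. Pold1, the lagging-strand polymerase, had 13.8 CPM in healthy 4, where the other healthy libraries had 8.51 to 9.65 CPM, and Rfc3, a clamp loader subunit, had 5.29 CPM there, where the others had 2.86 to 3.31 CPM. Chance alone marks about 1 in 20 such groups, and the 2 flagged of 153 are fewer than that. Healthy 4 is also the library with the most T cell marker RNA of its group, and the part of those cells in the 2 values was not tested.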

How the results depend on the processing

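In CIA against healthy, no alternative moved the count of the 48 genes called (43, with 41 to 45 when 1 library was left out) or of all genes called in either direction by more than 1.5 times. By direction, library totals gave 7370 higher and 1353 lower genes, against 4094 and 3081 with TMM. There 1 sign turned, Rfc4 at 0.22, under a scaling that shifts the median of all genes by 0.38 in that comparison and by -0.32 in CIA+F20 against CIA. In CIA+F20 against CIA, where 12 of the 48 were lower and 4669 genes were called in all, the 48 held 26 lower genes by DESeq2 (10 of them in mitosis), 39 by library totals (21 in replication, 14 in mitosis, 7041 genes in all), 7 when the 2 groups were fitted alone (6 and 0, 2674 in all), 22 without healthy 3 and healthy 4 (8 in mitosis) and 7 without those and CIA 4 (6 and 0, 3090 in all). Leaving out 1 library gave 4 to 39 of the 48, 3 to 20 in replication, 0 to 15 in mitosis and 2883 to 6215 in all. In CIA+F20 against healthy, DESeq2 called 118 genes, and without healthy 3, healthy 4 and CIA 4 there were 366, with 12 of the 48 (2 in replication, 10 in mitosis). The healthy libraries left out were the highest of their group for most of the 48, so that choice itself raises these fold changes. Leaving out 1 library gave 0 to 107 genes and 0 of the 48. The cause of these moves was not tested. Healthy 3 and healthy 4 are not part of CIA+F20 against CIA, where the median of the 48 was -1.14 without them and -1.15 with every library. The remaining turned signs belong to fold changes near 0. Rrm1 in CIA+F20 against CIA was 0.0097 with no filter, 0.0096 with the 2 groups alone, 0.0044 without healthy 3 and healthy 4 and 0.056 without those and CIA 4, where Rfc4 was 0.067 and Ccne2 0.077. Pold1 in CIA+F20 against healthy was 0.019 with library totals, 0.16 without healthy 3 and healthy 4 and 0.16 without those and CIA 4. Over single libraries left out, Rfc4 ran from -0.086 to 0.064, Rrm1 from -0.065 to 0.056 and Ccne2 from -0.20 to 0.074 in CIA+F20 against CIA, and Pold1 from -0.13 to 0.12 and Tk1 from -0.028 to 0.20 in CIA+F20 against healthy. E2F sites lay in 6 replication promoters, not 10, when the last 150 bases were read.

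The groups share replicate numbers, and deviations of same-numbered libraries correlated between -0.39 and 0.24. Libraries of different numbers were not compared in this way, so whether a shared number marks a pair or a batch was not tested. With a replicate block, 4 of the 48 genes were lower in CIA+F20 against CIA (3 in replication, 0 in mitosis), Rrm1 there was 0.0016, and Pold1 in CIA+F20 against healthy was 0.0092. The share of all tested genes called lower is not given here for the block fit or for DESeq2.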

Other observations

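Osteoclasts, the bone-resorbing cells, are non-dividing cells fused from myeloid precursors, and their markers placed the CIA libraries in an order unlike that of the replication and mitosis genes. The 9 osteoclast markers summed to 129 ± 37.0 CPM in CIA+F20, 560 ± 270 CPM in CIA and 88.5 ± 15.3 CPM in healthy (SD, n = 5 each), with 7 of 9 called higher in CIA against healthy and 7 of 9 called lower in CIA+F20 against CIA. CIA 3, lowest of its group for 45 of the 48 genes, had the most osteoclast marker RNA of all libraries at 819 CPM. CIA 4, highest for 47 of the 48, had 297 CPM. The 10 macrophage markers were called higher in CIA against healthy for 10 of 10 and lower in CIA+F20 against CIA for 9 of 10, where 12 of the 48 replication and mitosis genes were. Among all tested genes, 26.0% were called higher in CIA against healthy and 15.5% lower in CIA+F20 against CIA. These counts were set side by side after the values were seen, and the difference between them was not tested.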
